A study of Mus musculus with 15 samples.

Results

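Transcripts of platelets and of megakaryocytes, the marrow cells that shed them, were followed in mouse whole blood 6 h after dosing with ABBV-075, also named mivebresib, which blocks the bromodomains of the BET proteins. The 30 genes were taken from a list of platelet and megakaryocyte genes, and 27 of them had a probe set annotated with that gene alone, against 18193 such genes on the array. Those 27 genes had 41 probe sets, and the probe set of highest mean over the 15 arrays stood for each gene. Gp1ba, Ptgs1 and Bin2 were not paired with a probe set of their own in the annotation table and were not analysed here. All 27 measured genes passed the filter on low values, an intensity above 16 on at least 5 arrays, along with 12499 genes in all.

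The 15 mice formed 3 groups of 5, given vehicle, ABBV-075 at 1 mg/kg or ABBV-075 at 5 mg/kg, and all were sampled after 6 h, with 1 Affymetrix 3' expression array per mouse. The sources used here give no strain, sex, age or route of dosing. The aim stated for the series was to look for blood transcripts that respond to the compound, and the comparisons here ask whether the platelet transcripts did. Values are log2 of the quantile-normalised intensity, where 1 unit is a doubling and 4 is the floor. Since probe sets bind with different strength, a value is compared between arrays and not between genes.

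Platelets have no nucleus and carry RNA that was made in the megakaryocyte, so a platelet transcript in blood reads both how many platelets there are and how much RNA each still holds. In a whole blood sample fewer cells of a type and less RNA per cell cannot be told apart. Megakaryocytes build the platelet's receptors, granule proteins and cytoskeleton under factors of the GATA and ETS families, among them Gata1 and Fli1, with Nfe2 acting late in platelet release. On activation at a damaged vessel, platelets adhere through glycoprotein receptors, spread, release their granules and aggregate through the integrin αIIbβ3.

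Most genes of the list were detected on these arrays. All 8 of the platelet markers used for this check (Pf4, Ppbp, Itga2b, Gp9, Gp1bb, Gp5, Treml1 and Tubb1) lay above the floor on all 15 arrays. These 8 belong to the list, each read at its probe set of highest mean. They show detection and do not test the label. After normalisation 25 of the 27 genes (92.6%) were above the floor on every array, as were 56% of all genes tested. The exceptions were Selp, on 10 arrays, and Tbxa2r, on 14. Several members are not particular to platelets. For example, Vwf, Selp, Thbs1 and Mmrn1 are also made by endothelial cells, and Plek, Cd9, Tbxas1, P2rx1 and F5 also by some leukocytes. Of 10 endothelial markers 5 were tested, and Tek, Tie1 and Cldn5 were at the floor on all 15 arrays. Eng, which monocytes can also express, was above it on 15 arrays, Cdh5 and Egfl7 on 14 each, Emcn on 11 and Pecam1 on 5. The summed linear intensity of the 5 tested ran from 199 to 278 with vehicle, 192 to 293 at 1 mg/kg and 182 to 259 at 5 mg/kg, and the part of endothelial RNA in Vwf, Selp, Thbs1 and Mmrn1 was not tested.

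The promoters of 3 genes whose values are given by array are shown, a granule chemokine and a pair of adhesion receptors: Pf4, platelet factor 4, Itga2b, the αIIb chain of the fibrinogen receptor, and Gp5, a subunit of the receptor for von Willebrand factor. Each is the RefSeq window from 250 bases before to 50 after the start of the gene, 5′ to 3′ on the gene's strand (GRCm38.p6). Capitals mark AGATAA, the core bound by GATA factors, and AGGAAG, a core bound by ETS factors, on either strand (TTATCT and CTTCCT).
Pf4 (chr5:90772185-90772484, plus strand): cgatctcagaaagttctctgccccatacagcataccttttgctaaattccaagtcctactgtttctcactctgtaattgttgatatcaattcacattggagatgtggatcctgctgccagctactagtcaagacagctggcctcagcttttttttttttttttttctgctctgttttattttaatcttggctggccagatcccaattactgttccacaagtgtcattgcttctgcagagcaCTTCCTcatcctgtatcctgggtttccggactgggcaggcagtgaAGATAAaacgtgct
Itga2b (chr11:102469834-102470133, minus strand): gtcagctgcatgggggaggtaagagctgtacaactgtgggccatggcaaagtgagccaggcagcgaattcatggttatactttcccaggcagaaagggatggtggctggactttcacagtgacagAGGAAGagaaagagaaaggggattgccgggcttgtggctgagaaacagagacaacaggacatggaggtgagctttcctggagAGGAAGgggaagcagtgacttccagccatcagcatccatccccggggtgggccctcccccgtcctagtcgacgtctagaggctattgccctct
Gp5 (chr16:30310732-30311031, minus strand): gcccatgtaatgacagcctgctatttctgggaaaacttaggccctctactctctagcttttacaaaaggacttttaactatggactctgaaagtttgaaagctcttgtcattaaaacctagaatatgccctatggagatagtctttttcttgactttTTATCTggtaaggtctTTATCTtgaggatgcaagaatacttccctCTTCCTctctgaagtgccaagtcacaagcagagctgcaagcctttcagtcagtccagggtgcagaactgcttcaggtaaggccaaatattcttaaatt

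The Pf4 window held 1 AGATAA and 1 AGGAAG, that of Itga2b 0 and 2, and that of Gp5 2 and 1. Of the 30 genes, 24 were matched to a RefSeq window. AGATAA was found for 5 of the 24 (20.8%), against 12.7% of the 27025 genes with a window, and AGGAAG for 14 of 24 (58.3%), against 38.4%. Shorter and longer strings were also searched on both strands. AGATA, which lies within the longer GATA string, was found for 37.5% of the members against 32.8% of all genes. The ETS core GGAAG, which every longer ETS string searched contains, was found for 83.3% against 73.9%. With GGAAGT the shares were 45.8% against 26.5%. With CCGGAAG they were 0 of 24 against 9.93%. A match is a stretch of letters in the window and was not tested for binding.

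The arrays were not equal. Before normalisation the array medians spanned 3.61, on 1 mg/kg replicate 1, to 25.4, on 1 mg/kg replicate 4. The 18S signal was read from these unscaled intensities, so differences in scale between arrays remain in it. The 18S ribosomal RNA controls read, on the log2 scale, 11.19 ± 0.94 in vehicle mice, 9.97 ± 0.43 after 1 mg/kg and 9.42 ± 0.42 after 5 mg/kg (SD, n = 5 each; exact two-sided permutation p = 0.0397 and 0.00794 against vehicle; adjusted p = 0.171 and 0.0952 over 36 tests). The mean log2 of 8 monocyte markers was 7.82 ± 0.32, 7.12 ± 0.32 and 6.69 ± 0.10 in the same order (exact permutation p = 0.0238 and 0.00794; adjusted p = 0.143 and 0.0952). Dendritic cell markers, of which 6 were tested, averaged 5.98 ± 0.18, 5.51 ± 0.29 and 5.40 ± 0.19 with the same p values. NK cell markers averaged 6.602 ± 0.33, 5.99 ± 0.44 and 6.23 ± 0.46 (exact permutation p = 0.0476 and 0.167). Neutrophil markers averaged 6.77 ± 0.28, 6.19 ± 0.45 and 6.28 ± 0.56 (exact permutation p = 0.0556 and 0.119). B cell markers averaged 6.65 ± 0.46, 6.44 ± 0.56 and 7.18 ± 0.39 and T cell markers 6.97 ± 0.26, 6.825 ± 0.28 and 7.33 ± 0.36 (exact permutation p = 0.0952 and 0.0635 at 5 mg/kg). Erythroid markers, of which 7 were tested, averaged 9.08 ± 0.35, 9.08 ± 0.35 and 8.95 ± 0.57 (exact permutation p = 0.984 and 0.706). Summed linear intensity ran from 4890 to 7776 for the monocyte markers and 15720 to 17720 for the erythroid markers with vehicle, 3610 to 6518 and 13050 to 17890 at 1 mg/kg, and 2898 to 4244 and 13350 to 16490 at 5 mg/kg. None of the 36 tests of array measures passed an adjusted p of 0.05, and 0.00794 is the smallest p that 5 against 5 allows.

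Vehicle replicate 1 stood apart from the other vehicle mice in its platelet transcripts. It was the lowest of the 5 vehicle arrays for 25 of the 27 genes and the lowest of all 15 arrays for 14. Its mean over the 27 genes was 7.81, against 8.78, 9.003, 9.09 and 9.21 in the other vehicle mice. The 1 mg/kg arrays had means of 8.45, 8.50, 8.51, 8.53 and 8.14, and the 5 mg/kg arrays 8.28, 8.21, 8.83, 8.70 and 8.31. The same vehicle array had the highest 18S signal of the 15, 12.31, and the lowest NK cell marker mean of its group, 6.02 against 6.67 to 6.83. It was also the lowest vehicle array for the marker means of neutrophils (6.38 against 6.68 to 7.11), dendritic cells (5.74 against 5.91 to 6.18) and endothelial cells (4.87 against 5.14 to 5.30). Its monocyte marker mean, 7.85, lay within the 7.43 to 8.17 of the other vehicle arrays. The part of these measures in its platelet values was not tested. With the 18S signal as a covariate the median difference over the 27 genes was -0.96 at 5 mg/kg and -0.84 at 1 mg/kg, against -0.24 and -0.39 without it, and limma passed 0 of 27 genes. The 18S signal ran from 10.24 to 12.31 with vehicle, 9.58 to 10.7 at 1 mg/kg and 8.83 to 9.88 at 5 mg/kg. Since the vehicle and 5 mg/kg ranges do not overlap, 18S signal and dose cannot be told apart there. Beside each gene, the value without vehicle replicate 1 is given where it differs by over 1.5 times or in sign.

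**Figure D1:**
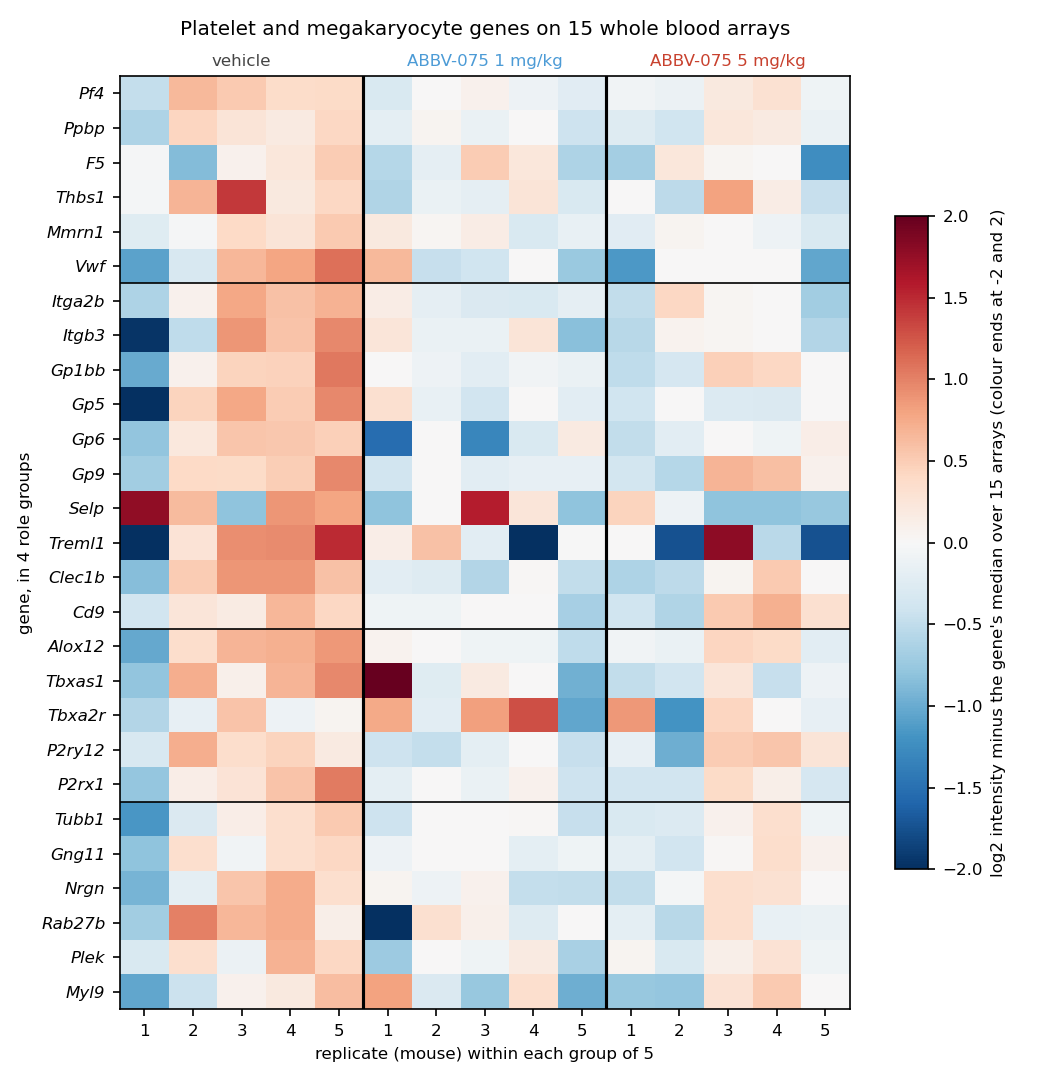
Log2 intensity of each of the 27 genes (rows, in 4 role groups) minus the gene's median over 15 arrays, for each mouse (columns, 5 per group in dose order). Vehicle replicate 1 is blue in nearly every row and vehicle replicates 3 to 5 mostly red, whereas Selp runs the other way in vehicle replicate 1.

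Platelet genes were slightly lower on average at both doses, and no gene passed the test. At 5 mg/kg 25 of the 27 genes had a mean below vehicle (92.6%, against 53.4% of all genes tested) and the median log2 difference was -0.24, against -0.03 over all genes. At 1 mg/kg 26 of 27 were below vehicle (96.3%, against 53%), with a median of -0.39 against -0.02 over all genes. By limma with Benjamini-Hochberg adjustment over all genes, 0 of 27 passed an adjusted p of 0.05 at either dose, where 0.088% of all genes passed at 5 mg/kg and 0.008% at 1 mg/kg. At an unadjusted p under 0.05 the counts were 1 of 27 at 5 mg/kg (Selp), against 7.78% of all genes (4.26% lower), and 3 of 27 at 1 mg/kg (Thbs1, Gp6 and Clec1b), against 6.03% (4.06% lower). For 0 of 27 genes did all 5 arrays of a dose lie on one side of all 5 vehicle arrays, which was seen for 2.57% of all genes at 5 mg/kg (1.46% below) and 0.904% at 1 mg/kg (0.72% below). Both comparisons use the same vehicle arrays, so their signs are not independent of each other, and the genes of a list share the platelets of each mouse.

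Without vehicle replicate 1 the differences from vehicle were larger. The median over the 27 genes was -0.50 at 5 mg/kg and -0.60 at 1 mg/kg, with 27 and 26 genes below vehicle (53.4% and 53.5% of all genes). At an unadjusted p under 0.05, 10 genes were lower at 5 mg/kg (37.0%, against 4.7% of all genes) and 15 at 1 mg/kg (55.6%, against 4.77%). All 5 treated arrays lay below the 4 remaining vehicle arrays for 3 genes at 5 mg/kg (Pf4, Gp5 and Gp6; 11.1%, against 2.73% of all genes) and for 11 at 1 mg/kg (40.7%, against 2.1%). Still 0 of 27 passed the adjusted threshold at either dose in limma, where 0.0649% of all genes passed at 5 mg/kg and 0 of 12335 at 1 mg/kg. The smallest adjusted p of a member was 0.173 at 5 mg/kg (Gp5) and 0.434 at 1 mg/kg (Clec1b). Vehicle replicate 1 was singled out for its low values in these same genes, so leaving it out raises most of their vehicle means by construction. The shares over all genes carry no such choice, so they are not a like comparison for these counts. Leaving out vehicle replicate 5, the array with the highest mean, gave medians of -0.17 and -0.22, with 20 genes below vehicle at each dose.

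**Figure D2:**
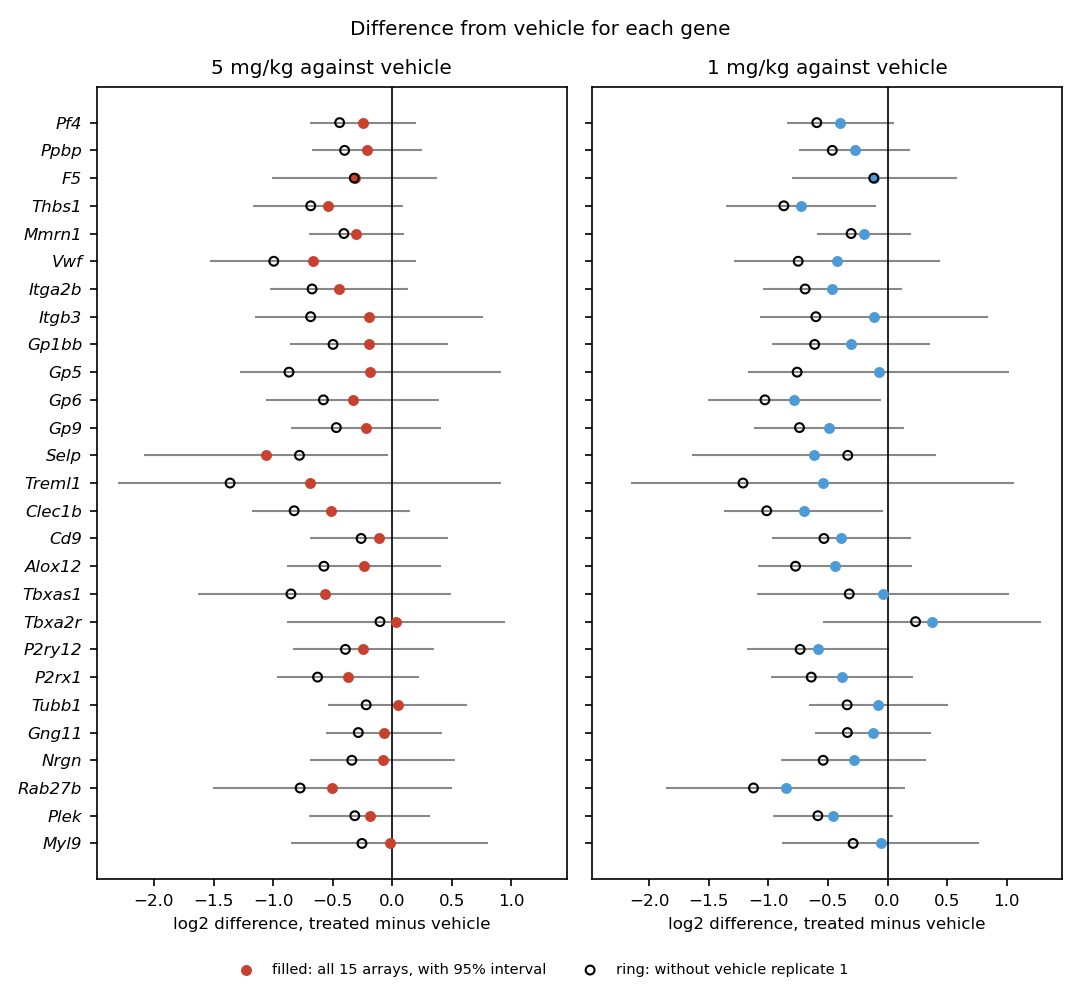
Log2 difference from vehicle of each gene at 5 mg/kg (left) and 1 mg/kg (right), with the 95% interval from the fit on 15 arrays (filled points and lines) and the value without vehicle replicate 1 (rings). Nearly all points lie left of 0, and leaving out that array moves most of them further left.

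Granule cargo, the proteins that platelets store and release, was represented by 6 genes. All 6 had means below vehicle at both doses, with median differences of -0.31 at 5 mg/kg and -0.34 at 1 mg/kg, and 0 of 6 passed the test. With vehicle replicate 1 left out the medians were -0.42 and -0.53. Pf4, which encodes the chemokine platelet factor 4 of the alpha granule, read 11.22, 12.35, 12.23, 12.06 and 12.08 on the vehicle arrays, 11.40, 11.70, 11.79, 11.60 and 11.47 at 1 mg/kg and 11.63, 11.59, 11.89, 12 and 11.61 at 5 mg/kg. The vehicle arrays other than replicate 1 lay above every treated array, and replicate 1 lay below all of them. The difference from vehicle was -0.25 ± 0.21 at 5 mg/kg (SE of the limma fit, 5 mice a group; limma adjusted p = 0.857; 95% interval -0.69 to 0.20) and -0.40 ± 0.21 at 1 mg/kg (adjusted p = 0.843; -0.84 to 0.05). Without vehicle replicate 1 it was -0.44 ± 0.18 (adjusted p = 0.509) and -0.59 ± 0.18 (adjusted p = 0.464). Ppbp, the precursor of the neutrophil-attracting chemokine Cxcl7 and a neighbour of Pf4 on the same chromosome, read 11.10, 12.14, 11.97, 11.89 and 12.13 on the vehicle arrays, 11.52, 11.76, 11.57, 11.71 and 11.29 at 1 mg/kg and 11.45, 11.31, 11.93, 11.89 and 11.58 at 5 mg/kg. It had the same low vehicle array, and its difference was -0.21 ± 0.22 at 5 mg/kg and -0.28 ± 0.22 at 1 mg/kg (limma adjusted p = 0.893 and 0.896), and -0.40 and -0.46 without that array.

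Thbs1, the matrix-binding glycoprotein thrombospondin-1 of the alpha granule, gave 7.11, 7.83, 8.56, 7.34 and 7.57 on the vehicle arrays, 6.55, 7.01, 6.97, 7.40 and 6.84 at 1 mg/kg and 7.15, 6.63, 7.95, 7.30 and 6.68 at 5 mg/kg. Its highest value was on vehicle replicate 3 and the groups overlapped. The difference from vehicle was -0.73 ± 0.30 at 1 mg/kg (SE over 5 mice a group; limma adjusted p = 0.782) and -0.54 ± 0.30 at 5 mg/kg (adjusted p = 0.737). Leaving out vehicle replicate 3 gave -0.32 at 5 mg/kg. A second, dimmer Thbs1 probe set, above the floor on 9 arrays, had the opposite sign, at 0.21 ± 0.32 at 5 mg/kg and 0.14 at 1 mg/kg. The monocyte marker mean was also lower at both doses, short of the adjusted threshold. The part of monocyte RNA in the Thbs1 values was not tested. Vwf, von Willebrand factor, the ligand that tethers platelets to exposed collagen, gave 6.15, 6.91, 7.88, 8.02 and 8.32 on the vehicle arrays, 7.87, 6.77, 6.82, 7.23 and 6.48 at 1 mg/kg and 6.07, 7.23, 7.24, 7.23 and 6.18 at 5 mg/kg. Vehicle replicates 3 to 5 were the highest of the 15 arrays, and vehicle replicate 1 was among the 3 lowest. The difference was -0.67 ± 0.41 at 5 mg/kg and -0.42 ± 0.41 at 1 mg/kg (limma adjusted p = 0.773 and 0.911), and -0.99 and -0.75 without vehicle replicate 1.

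Mmrn1, multimerin 1, the alpha-granule protein that holds factor V, measured 8.04, 8.26, 8.67, 8.54 and 8.81 on the vehicle arrays, 8.47, 8.32, 8.43, 7.97 and 8.13 at 1 mg/kg and 8.05, 8.33, 8.28, 8.18 and 7.97 at 5 mg/kg. It varied least of the 27 genes within the vehicle and the 5 mg/kg group, and the differences were -0.30 ± 0.19 at 5 mg/kg and -0.20 ± 0.19 at 1 mg/kg (SE, 5 arrays a group; limma adjusted p = 0.775 and 0.911), or -0.41 and -0.31 without vehicle replicate 1. F5, coagulation factor V, averaged 8.11 ± 0.51 in vehicle mice, 8.003 ± 0.49 after 1 mg/kg and 7.80 ± 0.61 after 5 mg/kg (SD, n = 5 each). It was one of 2 genes, with Selp, in which vehicle replicate 1 was not the lowest vehicle array, and its second probe set gave -0.52 ± 0.30 at 5 mg/kg.

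Adhesion receptors and their partners made up the biggest role group, with 10 genes measured. All 10 had means below vehicle at both doses, with median differences of -0.28 at 5 mg/kg and -0.48 at 1 mg/kg, and 0 of 10 passed the test. The medians were, with vehicle replicate 1 left out, -0.68 and -0.72. Itga2b, the αIIb chain of the platelet fibrinogen receptor, read 8.27, 8.97, 9.66, 9.47 and 9.59 on the vehicle arrays, 9.04, 8.71, 8.59, 8.58 and 8.71 at 1 mg/kg and 8.40, 9.31, 8.93, 8.89 and 8.20 at 5 mg/kg. Vehicle replicates 3 to 5 exceeded every treated array, whereas vehicle replicates 1 and 2 lay among them. The difference from vehicle was -0.45 ± 0.27 at 5 mg/kg and -0.47 ± 0.27 at 1 mg/kg (SE over 5 mice a group; limma adjusted p = 0.773 and 0.858). Leaving out vehicle replicate 1 gave -0.67 and -0.69. Itgb3, the β3 chain that pairs with it, averaged 7.47 ± 1.24 in vehicle mice, 7.355 ± 0.44 after 1 mg/kg and 7.27 ± 0.33 after 5 mg/kg (SD, n = 5 each), and vehicle replicate 1 was at 5.52 against 6.96 to 8.44 in the other vehicle mice. Its difference was -0.20 at 5 mg/kg and -0.11 at 1 mg/kg with that array and -0.68 and -0.60 without it.

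The receptor for von Willebrand factor is built from the products of Gp1ba, Gp1bb, Gp9 and Gp5, the last 3 of which were measured. Gp1bb, the β chain of glycoprotein Ib, read 8.31, 9.41, 9.77, 9.79 and 10.39 on the vehicle arrays, 9.33, 9.22, 9.12, 9.26 and 9.20 at 1 mg/kg and 8.82, 9, 9.81, 9.74 and 9.33 at 5 mg/kg. The 1 mg/kg arrays lay within 9.12 to 9.33, the tightest group of any of the 27 genes, and inside the range of the vehicle arrays. The difference was -0.19 ± 0.31 at 5 mg/kg and -0.31 ± 0.31 at 1 mg/kg (limma adjusted p = 0.945 and 0.918), without vehicle replicate 1 it was -0.50 and -0.61, and at 5 mg/kg it was 0.018 without vehicle replicate 5. A second Gp1bb probe set gave -0.31 and -0.26, and one annotated to both Gp1bb and its neighbour Septin5 was left out. Gp9, glycoprotein IX, read 8.93, 10.01, 10, 10.10 and 10.57 on the vehicle arrays, 9.23, 9.62, 9.41, 9.45 and 9.45 at 1 mg/kg and 9.25, 9.04, 10.29, 10.22 and 9.70 at 5 mg/kg. At 5 mg/kg replicates 3 and 4 lay among the higher vehicle arrays and replicates 1 and 2 near vehicle replicate 1. The Gp9 difference was -0.22 ± 0.30 at 5 mg/kg and -0.49 ± 0.30 at 1 mg/kg (limma adjusted p = 0.932 and 0.866), or -0.47 and -0.74 with vehicle replicate 1 left out. Its value at 5 mg/kg was -0.059 without vehicle replicate 5 and -0.057 without 5 mg/kg replicate 2.

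Gp5, glycoprotein V, whose promoter is printed, read 4.62, 7.80, 8.12, 7.86 and 8.32 on the vehicle arrays, 7.67, 7.21, 6.97, 7.35 and 7.14 at 1 mg/kg and 6.95, 7.35, 7.08, 7.06 and 7.36 at 5 mg/kg. Vehicle replicate 1 was far below the nearest vehicle array, and the other 4 vehicle arrays lay above all 10 treated arrays. With that array in, the difference was -0.18 ± 0.52 at 5 mg/kg and -0.08 ± 0.52 at 1 mg/kg (SE over 5 mice a group; limma adjusted p = 0.978 and 0.988). Without it the values were -0.87 ± 0.20 (adjusted p = 0.173) and -0.76 ± 0.20 (adjusted p = 0.455). The size of the Gp5 difference thus turns on 1 array.

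Gp6, the collagen receptor glycoprotein VI, read 5.68, 6.68, 7.02, 7.01 and 6.94 on the vehicle arrays, 4.95, 6.48, 5.16, 6.17 and 6.66 at 1 mg/kg and 5.97, 6.25, 6.47, 6.38 and 6.597 at 5 mg/kg. The lowest values were 1 mg/kg replicates 1 and 3, and vehicle replicate 1 was the lowest vehicle array. The difference was -0.78 ± 0.34 at 1 mg/kg (SE over 5 mice a group; limma adjusted p = 0.818) and -0.33 ± 0.34 at 5 mg/kg (adjusted p = 0.893). Gp6 was at -0.58 at 5 mg/kg and -1.03 at 1 mg/kg without vehicle replicate 1, and at -0.55 at 1 mg/kg without replicate 1 of that dose. Clec1b, the podoplanin receptor CLEC-2, read 9.99, 11.34, 11.72, 11.73 and 11.42 on the vehicle arrays, 10.63, 10.58, 10.26, 10.87 and 10.34 at 1 mg/kg and 10.22, 10.31, 10.90, 11.37 and 10.84 at 5 mg/kg. The 4 higher vehicle arrays exceeded every array at 1 mg/kg, and at 5 mg/kg only replicate 4 reached their range. The difference was -0.70 ± 0.31 at 1 mg/kg (limma adjusted p = 0.818) and -0.51 ± 0.31 at 5 mg/kg (adjusted p = 0.773), and without vehicle replicate 1 it was -1.01 ± 0.24 and -0.82 ± 0.24 (adjusted p = 0.434 and 0.296).

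Selp, P-selectin, which moves from the alpha granule to the surface of activated platelets and binds leukocytes, read 6.58, 5.45, 4.00, 5.70 and 5.59 on the vehicle arrays, 4.00, 4.81, 6.38, 5.05 and 4.00 at 1 mg/kg and 5.26, 4.70, 4.00, 4.00 and 4.06 at 5 mg/kg. It was above the floor on 4 vehicle arrays, 3 at 1 mg/kg and 3 at 5 mg/kg, and vehicle replicate 1 was its highest array. Its difference, -1.06 ± 0.48 at 5 mg/kg (SE over 5 mice a group; limma adjusted p = 0.625) and -0.61 ± 0.48 at 1 mg/kg (adjusted p = 0.895), is bounded by the floor. The value at 5 mg/kg was -1.43 without vehicle replicate 3 and -0.78 without vehicle replicate 1, which gave -0.33 at 1 mg/kg. A floor of 8 gave -1.23, a floor of 32 gave -0.61, the mean of its probe sets -0.53 and the 18S covariate -0.21. Another 2 Selp probe sets were too dim to test.

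Treml1, a receptor of the alpha-granule membrane, had the widest spread among vehicle mice, 7.30 ± 1.55, and averaged 6.76 ± 1.00 at 1 mg/kg and 6.61 ± 1.46 at 5 mg/kg (SD, n = 5 each). Its 95% interval at 5 mg/kg, -2.30 to 0.92, leaves a difference of either sign possible. The value itself was -0.69 at 5 mg/kg and -0.54 at 1 mg/kg over all arrays and -1.36 and -1.21 without vehicle replicate 1. Cd9, a tetraspanin of the platelet surface, averaged 10.60 ± 0.39 in vehicle mice, 10.21 ± 0.28 after 1 mg/kg and 10.49 ± 0.58 after 5 mg/kg. Treml1 and Cd9 passed the test at neither dose (limma adjusted p = 0.905 and 0.974 at 5 mg/kg, 0.941 and 0.886 at 1 mg/kg). Cd9 was at -0.11 and -0.39 at 5 and 1 mg/kg, or -0.26 and -0.53 without vehicle replicate 1.

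**Figure D3:**
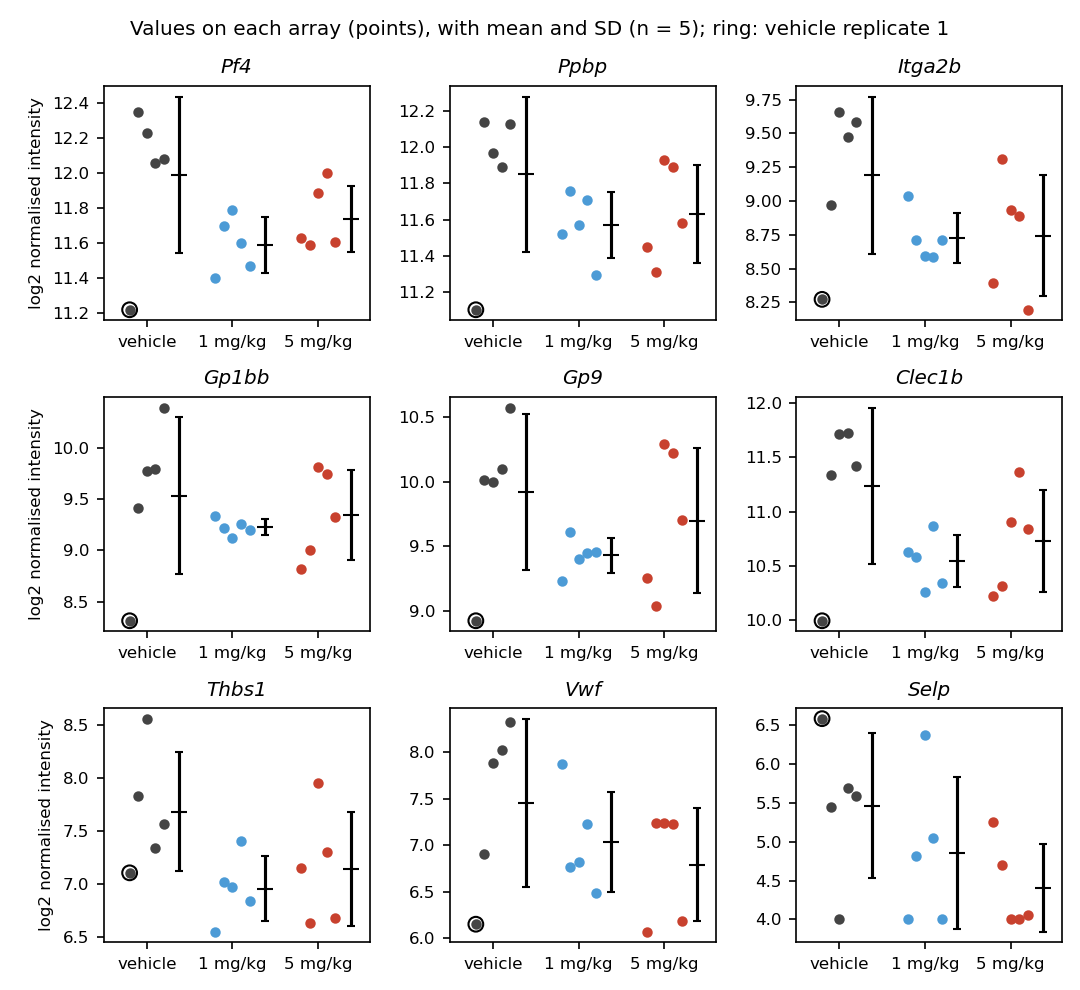
Log2 normalised intensity of 9 genes on each array (points) by group in dose order, with group mean and SD (n = 5). The ringed point, vehicle replicate 1, is the lowest vehicle value in 8 panels and the highest in the panel of Selp.

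Eicosanoid enzymes and the receptors of soluble agonists (thromboxane and the nucleotides ADP and ATP) were represented by 5 genes, 4 of them below vehicle at each dose, with 0 of 5 past the test. The medians were -0.24 at 5 mg/kg and -0.38 at 1 mg/kg, or -0.57 and -0.64 without vehicle replicate 1. P2rx1, the ATP-gated channel, read 6.81, 7.71, 7.85, 8.15 and 8.62 on the vehicle arrays, 7.38, 7.58, 7.44, 7.67 and 7.16 at 1 mg/kg and 7.19, 7.201, 7.95, 7.70 and 7.24 at 5 mg/kg. Its difference was -0.37 ± 0.28 at 5 mg/kg and -0.38 ± 0.28 at 1 mg/kg (SE over 5 mice a group; limma adjusted p = 0.83 and 0.89), or -0.63 and -0.64 without vehicle replicate 1. Leaving out vehicle replicate 5 gave -0.17 at 5 mg/kg, while its second probe set gave -0.12 and 0.0046. P2ry12, the ADP receptor blocked by clopidogrel, read 8.02, 9.06, 8.69, 8.79 and 8.52 on the vehicle arrays, 7.93, 7.86, 8.15, 8.34 and 7.88 at 1 mg/kg and 8.17, 7.36, 8.84, 8.89 and 8.60 at 5 mg/kg. The 5 arrays at 1 mg/kg lay below the 4 higher vehicle arrays, and the 5 mg/kg arrays ranged from 7.36 to 8.89. The difference was -0.58 ± 0.28 at 1 mg/kg and -0.24 ± 0.28 at 5 mg/kg (limma adjusted p = 0.831 and 0.909), or -0.73 and -0.39 without vehicle replicate 1.

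Alox12, the platelet 12-lipoxygenase, averaged 9.38 ± 0.77 in vehicle mice, 8.94 ± 0.23 after 1 mg/kg and 9.14 ± 0.31 after 5 mg/kg (SD, n = 5 each; limma adjusted p = 0.881 at 1 mg/kg and 0.926 at 5 mg/kg). Its difference was -0.24 at 5 mg/kg and -0.44 at 1 mg/kg, or -0.57 and -0.77 without vehicle replicate 1. Tbxas1, thromboxane synthase, averaged 6.03 ± 0.70, 5.99 ± 1.30 and 5.465 ± 0.31 in the same order, its highest value being 8.19 on 1 mg/kg replicate 1. Leaving out vehicle replicate 1 took Tbxas1 to -0.85 at 5 mg/kg, where all arrays gave -0.57, and to -0.32 at 1 mg/kg, where they gave -0.04. Tbxa2r, the thromboxane receptor, averaged 5.15 ± 0.42, 5.53 ± 0.94 and 5.19 ± 0.77 and had a mean above vehicle at both doses (0.03 ± 0.43, SE, at 5 mg/kg and 0.37 ± 0.43 at 1 mg/kg). The sign at 5 mg/kg turned without vehicle replicate 1, with -0.10 at 5 mg/kg and 0.24 at 1 mg/kg. It lies close to the floor.

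Genes of signalling, secretion and the cytoskeleton had a small median difference at 5 mg/kg over all 15 arrays. The median was larger in size without vehicle replicate 1. Of the 6 measured, 5 (5 mg/kg) and 6 (1 mg/kg) had means below vehicle, with medians of -0.08 and -0.20, and 0 of 6 passed. All 6, without vehicle replicate 1, lay below vehicle at both doses, with medians of -0.30 and -0.44, and again 0 of 6 passed. Tubb1, the β1-tubulin of the platelet's marginal band, averaged 10.25 ± 0.67 in vehicle mice, 10.17 ± 0.24 after 1 mg/kg and 10.29 ± 0.26 after 5 mg/kg (SD, n = 5 each). Its 95% interval at 5 mg/kg was -0.54 to 0.63, and its difference, 0.05 at that dose, was -0.22 without vehicle replicate 1 (at 1 mg/kg -0.34, against -0.08 over all arrays). Gng11, a G-protein γ subunit, averaged 11.78 ± 0.51, 11.66 ± 0.085 and 11.71 ± 0.28, and Nrgn, neurogranin, a calmodulin-binding protein, 10.73 ± 0.67, 10.45 ± 0.28 and 10.65 ± 0.33. Myl9, a regulatory myosin light chain, averaged 8.93 ± 0.64, 8.87 ± 0.74 and 8.91 ± 0.60. At 5 mg/kg without vehicle replicate 1 Gng11 was at -0.28, Nrgn at -0.34 and Myl9 at -0.25, where all 15 arrays gave -0.07, -0.08 and -0.02. Again without that array, the same 3 genes at 1 mg/kg were at -0.34, -0.54 and -0.29, where all 15 arrays gave -0.12, -0.28 and -0.06.

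Plek, pleckstrin, a substrate of protein kinase C, averaged 10.33 ± 0.41 in vehicle mice, 9.87 ± 0.41 after 1 mg/kg and 10.14 ± 0.22 after 5 mg/kg (SD, n = 5 each), and its 3 probe sets had the same sign. Rab27b, a small GTPase of granule secretion, averaged 7.73 ± 0.68, 6.87 ± 1.22 and 7.225 ± 0.32 in the same order, with 4.73 on 1 mg/kg replicate 1 against 7.11 to 7.69 on the other arrays of that dose. Its 4 probe sets gave -0.50, -0.47, -0.17 and 0.19 at 5 mg/kg. Rab27b without vehicle replicate 1 was at -0.77 and Plek, -0.19 over all arrays, at -0.31 at that dose. Across the 10 genes with more than 1 probe set, 11 further probe sets were tested, 9 had the sign of the chosen one at 5 mg/kg and 0 passed an adjusted p of 0.05 in limma at any comparison.

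The 2 doses were not told apart by the test. At 5 mg/kg against 1 mg/kg 9 of the 27 genes were lower and 18 higher (33.3% lower, against 52.3% of all genes), with a median log2 difference of 0.06 against -0.02 over all genes. That direction turned with the 18S covariate, under which 20 of 27 were lower and the median was -0.15, and without 5 mg/kg replicate 3, when 15 were lower and the median was -0.009. In limma 0 of 27 passed an adjusted p of 0.05, as did 0% of the 12499 genes. At an unadjusted p under 0.05 limma gave 0 of 27 and 7.9% of all genes (2.63% lower). The 2 groups overlapped in all 27 genes and were apart in 1.16% of all genes (0.24% below). Gp6 had the smallest p among the members (0.45 ± 0.34, SE over 5 mice a group; limma adjusted p = 0.773; 95% interval -0.275 to 1.18). The 95% intervals of Pf4, -0.30 to 0.60, and Itga2b, -0.56 to 0.60, show what size of dose difference these arrays leave possible, and the missing calls do not show that the doses act alike.

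The platelet genes varied together from mouse to mouse. With the group means removed, the correlation of each gene with the mean of the other members over the 15 arrays had a median of 0.75, and 21 of 27 genes exceeded 0.5, as did 4.45% of all other genes tested, whose median was -0.01. Alox12 (0.98), P2rx1 (0.95), Tubb1 (0.93), Gp1bb (0.92) and Ppbp (0.91) followed the others most closely, and Selp ran against them (-0.42). Without vehicle replicate 1 the median was 0.48 and 13 of 27 genes exceeded 0.5, against 4.81% of other genes. Alox12 (0.95), P2rx1 (0.91), Tubb1 (0.81) and Gp1bb (0.79) were still above 0.5, whereas Gp5 was at 0.014 and Gp6 at -0.14. These correlations are descriptions over 15 arrays that share a normalisation, and no test was attached to them.

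**Figure D4:**
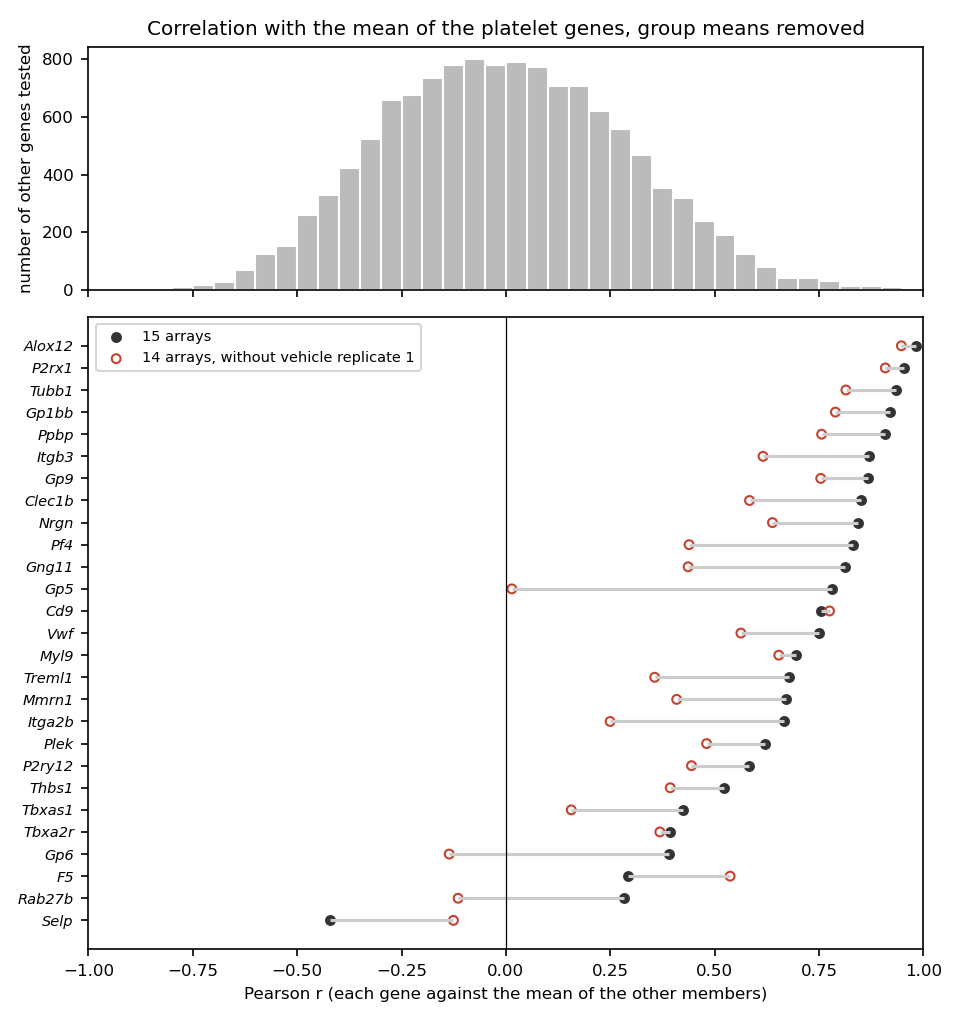
Top, number of the other genes tested by their Pearson correlation with the mean of the platelet genes over 15 arrays, group means removed. Bottom, the same for each of the 27 genes against the mean of the other members, with 15 arrays (filled) and without vehicle replicate 1 (rings). In it 21 filled points lie above 0.5.

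The 10 genes outside the list that followed the platelet mean most closely were Mast2 (0.94), Cnn2 (0.93), Tpm4 (0.93), Cd151 (0.93), Mrvi1 (0.92), Ehd4 (0.92), Slc2a3 (0.92), Gas2l1 (0.91), Fermt3 (0.91) and Rsu1 (0.91). Without vehicle replicate 1 they were at 0.69 to 0.85. Fermt3 encodes kindlin-3, which platelets need to activate their integrins, Cd151 a tetraspanin that binds αIIbβ3, Tpm4 and Cnn2 the actin-binding tropomyosin 4 and calponin 2, and Slc2a3 a glucose transporter found in platelets. Fermt3, Cd151 and Tpm4 were among the listed platelet pathway genes. None of the 10 passed limma's adjusted p of 0.05 at either dose.

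Over all 5 vehicle arrays the spread between mice was wide for these genes. The median SD of the 27 genes was 0.64 in vehicle mice, 0.28 after 1 mg/kg and 0.35 after 5 mg/kg, where all genes tested had median SDs of 0.39, 0.50 and 0.40. Without vehicle replicate 1 the vehicle value was 0.34, against 0.36 for all genes tested. The median standard error of a log2 difference was 0.30 for the 27 genes and 0.29 for all genes. With the same 5 arrays a group, the standard error ran from 0.19 (Mmrn1) to 0.76 (Treml1) among the 27.

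**Figure D5:**
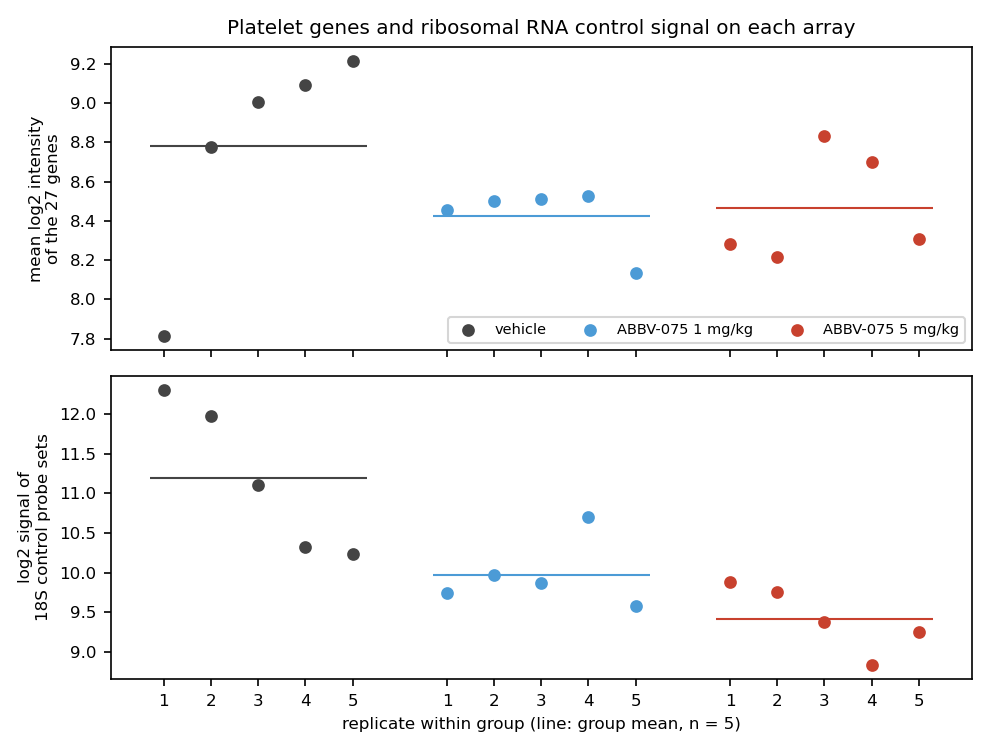
Mean log2 normalised intensity of the 27 genes (top) and log2 18S ribosomal RNA control signal, not scaled between arrays (bottom), on each array, with group means as lines. Vehicle replicate 1 has the lowest platelet mean, 7.81, and the highest 18S signal, 12.31.

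Other genes of the megakaryocyte and platelet were read from 4 further lists. Of 14 transcription factors and receptors of the megakaryocyte 11 were tested, of which 8 (5 mg/kg) and 7 (1 mg/kg) lay below vehicle, with medians of -0.21 and -0.28 and 0 past the test. Of all genes tested 53.4% and 53% were below vehicle, with 0.088% and 0.008% past limma's adjusted threshold and 7.78% and 6.03% at an unadjusted p under 0.05, where this list had 2 and 3 genes. Nfe2, the leucine zipper factor of platelet release, averaged 7.90 ± 0.16 in vehicle mice, 7.38 ± 0.32 after 1 mg/kg and 6.99 ± 0.35 after 5 mg/kg (SD, n = 5 each). All 5 arrays at each dose, 6.83 to 7.61 at 1 mg/kg and 6.596 to 7.44 at 5 mg/kg, lay below the vehicle range of 7.73 to 8.08. Of all genes tested 1.46% lay so at 5 mg/kg and 0.72% at 1 mg/kg, and both doses are set against the same vehicle arrays. The difference was -0.91 ± 0.21 at 5 mg/kg (SE; limma adjusted p = 0.124) and -0.52 ± 0.21 at 1 mg/kg (adjusted p = 0.782). Nfe2 is also expressed by erythroid cells and granulocytes. Gata1, which erythroid cells and eosinophils share, was at -0.68 ± 0.23 and Fli1, an ETS factor also found in leukocytes, at -0.44 ± 0.31 at 5 mg/kg (adjusted p = 0.385 and 0.818). Nfe2, Gata1 and Fli1 were named for having the smallest p of the list at 5 mg/kg. Gata2, Tal1 and Ldb1 lay slightly above vehicle at that dose, at 0.046, 0.083 and 0.049.

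Of 28 genes of platelet signalling and integrin activation 23 were tested, with 15 (5 mg/kg) and 17 (1 mg/kg) below vehicle, medians of -0.05 and -0.22, and 0 past the test (1 and 3 at an unadjusted p under 0.05). Itga6, the α6 chain of the laminin receptor, was at -0.56 ± 0.22 at 5 mg/kg and -0.79 ± 0.22 at 1 mg/kg (SE; limma adjusted p = 0.503 and 0.477), the adaptor Lcp2 (SLP-76) at -0.41 ± 0.20 and the kinase Syk at 0.38 ± 0.23 at 5 mg/kg. Of 24 genes of granules and secretion 21 were tested, with 17 and 15 below vehicle, medians of -0.26 and -0.33, and 0 past the test (0 and 1 at an unadjusted p). Clu, clusterin, was at -0.50 ± 0.27, Hps4, a factor of dense granule formation, at -0.54 ± 0.30 and Nbeal2, a factor of alpha granule formation, at 1.18 ± 0.56 at 5 mg/kg. Nbeal2 was above the floor on 2 vehicle arrays, 2 at 1 mg/kg and 5 at 5 mg/kg, and its value is bounded by the floor. Of 18 cytoskeletal genes 18 were tested, with 10 and 15 below vehicle, medians of -0.05 and -0.26, and 0 past the test (1 and 2 at an unadjusted p). Tubb2a, a β-tubulin, was at -0.79 ± 0.27, the tropomyosin Tpm1 at -0.61 ± 0.39 and the α-tubulin Tuba4a at 0.35 ± 0.24 at 5 mg/kg. The medians without vehicle replicate 1 at 5 and 1 mg/kg were -0.17 and -0.33 for the transcription factors, -0.18 and -0.31 for signalling, -0.34 and -0.41 for granules and -0.21 and -0.35 for the cytoskeleton, and again 0 genes of these lists passed. Many genes of these lists are also expressed by leukocytes, and the mean of the monocyte markers was lower at both doses by the values given for it, short of the adjusted threshold. The part of that in these lists was not tested.

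The Entrez Gene identifiers of the genes given by array are 56744 (Pf4), 57349 (Ppbp), 16399 (Itga2b), 14724 (Gp1bb), 54368 (Gp9), 243816 (Gp6), 56760 (Clec1b), 20344 (Selp), 21825 (Thbs1), 22371 (Vwf), 70945 (Mmrn1), 18436 (P2rx1), 14729 (Gp5) and 70839 (P2ry12).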

How the data were processed

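RNA extracted from the blood of 15 mice was labelled with an Affymetrix 3' IVT kit from 200 ng, per the labels' protocols. The table deposited by the authors holds 1 intensity per probe set and array on a linear scale, with values below 0, for 45101 probe sets; software, summarisation and scaling are not given in the sources used here, and array medians show no common scale. The 64 control probe sets were left out, arrays were quantile-normalised, values under 16 were set to 16 and log2 was taken. Probe sets annotated with 1 gene (34945) were named, 932 with several genes and 9160 with none listed were not. Genes above the floor on at least 5 arrays were tested with limma 3.58.1 in R 4.3.3 (12 residual and 3.904 prior degrees of freedom, two-sided, Benjamini-Hochberg over 12499 genes), all 3 groups in 1 fit. Every SE of a log2 difference comes from such a fit, with a gene's spread pooled over all 3 groups and moderated by limma. In data simulated at these means and spreads, 31% of genes changed by 1 log2 unit and 84% of those changed by 2 were recovered at 5 mg/kg against vehicle (200 of 12499 genes changed). Array measures were compared by exact permutation over 126 splits.

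Members, lists and tests were chosen with earlier results of these data known. Genes given by array were the 8 members of smallest p at 5 mg/kg, the 4 of smallest p at 1 mg/kg and Pf4, Ppbp, Itga2b, Gp9 and Gp1bb, with Gp5 added after its values were seen. Of each pathway list the 3 genes of smallest p at 5 mg/kg were named. Replicates are separate mice, since the design gives 5 mice per group. Alternatives were other scalings, floors, filters, probe set rules and weights, an 18S covariate, a replicate block and leaving out each array.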

Additional observations from a re-analysis of the deposited data

Results flagged for a closer look

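Among groups of 5 arrays, a value was singled out when its gap to the nearest other exceeded 0.71 of the group's range, which chance gives in about 1 of 20 groups. Of 120 groups in all, array measures such as the marker means included, 13 were singled out. The genes vary together and share arrays, so their groups are not independent and that rate is not a like measure for them. Of 81 groups of the 27 genes 10 were singled out, 6 of them for vehicle replicate 1. That array was the lowest vehicle array for Pf4 (log2 11.22, next 12.06), Ppbp (11.10, next 11.89), Gp5 (4.62, next 7.80), Gp6 (5.68, next 6.68), Clec1b (9.99, next 11.34) and Alox12 (8.04, next 9.42), and for the NK cell marker mean (6.02, next 6.67). At 1 mg/kg replicate 1 was the highest for Itga2b (9.04, next 8.71) and the lowest for Rab27b (4.73, next 7.11). Replicate 5 of that dose was the lowest for Alox12 (8.55, next 8.975), Cd9 (9.72, next 10.29) and the mean of the 27 genes (8.14, next 8.45). The B cell marker mean was highest on vehicle replicate 2 (7.45, next 6.62).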

How the results depend on the processing

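Under every alternative named here, of which leaving out 2 arrays together was chosen after seeing the data, 0 of the 27 genes passed the adjusted threshold in any of the 3 comparisons, and the smallest adjusted p of a member was 0.0996, at 5 mg/kg without both vehicle replicate 1 and 1 mg/kg replicate 1. The median log2 difference at 5 mg/kg was -0.12 without scaling (where the median of all genes was 0.10) and -0.50 to -0.17 on leaving out 1 array. It was -0.96 with the 18S signal as a covariate, whose vehicle and 5 mg/kg ranges do not overlap, and the cause was not tested. At 1 mg/kg it was -0.84 with that covariate and -0.60 to -0.22 on leaving out 1 array. At 5 against 1 mg/kg the number of lower members was 5 without scaling and 20 with the covariate, and 6 to 15 on leaving out 1 array, against 9. Gp1bb at 5 mg/kg, -0.19, was 0.018 without vehicle replicate 5. The mean level of the members was 8.25 without scaling against 8.43 at 1 mg/kg, and, when probe sets of a gene were averaged, 8.045 against 8.47 at 5 mg/kg and 8.01 at 1 mg/kg, since dimmer probe sets enter. The median correlation among members, 0.75, was 0.48 without vehicle replicate 1, 0.58 also without 1 mg/kg replicate 1 and 0.91 without scaling, where that of all other genes was 0.63. The number of all genes past the threshold at 5 mg/kg, 11, was 0 to 65 (18S covariate; array weights), and 1 without scaling, 45 with a floor of 32, 22 and 17 with looser filters, 33 with the mean of probe sets, 32 with each on its own, 17 with 2 groups, and 8 to 22 on leaving out 1 array. At 1 mg/kg it was 0 to 2 and at 5 against 1 mg/kg 0 to 1. With the replicate block the medians were -0.24 and -0.39, and no call on a member differed. Arrays of the same number correlated at -0.28 to 0.35, with 3 of 15 pairs over 0.1, so the numbers were not taken to pair mice, and 3 of 15 arrays correlated best with their own number.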
